A study of Mus musculus with 9 samples.

Results

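The genes described are the nuclear-encoded subunits of the mitochondrial respiratory chain and of ATP synthase. They were taken by symbol from the 55453 lines of the count table: the Nduf genes of the a, b, c, s and v series, Sdha to Sdhd, all Uqcr genes, Cyc1, Cycs, the Cox genes numbered 4 to 8 and all Atp5 genes. Of 94 matching lines, 7 with pseudogene symbols and 4 with fewer than 10 counts over the 9 libraries were left out (Cox6b2, Cox8b and Cox8c at 0 counts and Cox7b2 with 2). The 83 members comprised 36 genes of complex I, 4 of complex II, 9 of complex III, 16 of complex IV, 17 of complex V (ATP synthase) and cytochrome c. Ndufa4 was counted with complex IV, in which its product sits despite its name. Of these, 80 passed the filter on low counts and were tested. Cox4i2 (21 counts in all), Cox6a2 (40) and Cox6c2 (16) did not pass it. Cox6c2 is annotated as a processed pseudogene and was kept because its symbol does not mark it as one. Cox7a2l, counted with complex IV, is a factor for joining complexes rather than a structural subunit.

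RNA was sequenced from wild-type ST2 cells, a mouse stromal line that arose in a long-term culture of marrow from BC8 mice. There were 3 libraries each of unfed cells (24 h), of cells fed for 3 h (early-fed, fed 3 h in the plots) and of cells fed for 24 h (late-fed, fed 24 h in the plots). The meal was end-stage human neutrophils, frozen for at least 18 h, stained with 20 µM dye and given at 10 per ST2 cell, and fed cells were sorted by dye signal for uptake of at least a whole neutrophil. Feeding and sorting differed together from the unfed group and cannot be told apart, early-fed and unfed cells also differed in collection time because no unfed 3 h group was included, and the replicates are numbered without being described as separate cultures.

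Complexes I and II feed electrons from NADH and from succinate into ubiquinone, complex III passes them to cytochrome c, and complex IV hands them to oxygen. Complexes I, III and IV pump protons as they do so, and complex V lets the protons flow back to make ATP. Most subunits are encoded in the nucleus and imported, while a small core is encoded in mitochondrial DNA. In marrow stromal cells this chain is known for its part in the metabolic change that accompanies osteoblast formation.

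Total counts ran from 44442664 to 55971275 per library, and the 83 members together held 0.921% to 1.07% of them. All 10 stromal marker genes (Col1a1, Cxcl12, Kitl and others) were tested, with summed levels of 34000 to 36300 CPM (counts scaled to the size of the library, the usual expression unit) in unfed, 30400 to 31200 in early-fed and 36800 to 38800 in late-fed libraries. Of 12 neutrophil marker genes 2 passed the filter, S100a9 and Ngp were at 0 counts, and the sums were 2.92 to 3.88, 1.03 to 1.7 and 4.27 to 5.3 CPM in the same order. The 8 macrophage markers (3 tested, Adgre1 and Fcgr1 at 0 counts) summed to 4.81 to 6.88, 4.55 to 5.35 and 7.69 to 9.53 CPM. Early-fed replicate 3 stood apart from the other early-fed libraries, with 1.12% of counts in mitochondrially encoded genes against 1.5% and 1.58%. Its share in the genes Gm42418 and Gm26917, which collect ribosomal RNA reads, was 0.249%, against 0.107% and 0.0927%. Both shares also moved with the late-fed group. Mitochondrially encoded genes held 1.78% to 2.22% of counts in late-fed and 1.48% to 1.61% in unfed libraries, and the genes that collect ribosomal RNA reads 0.201% to 0.35% and 0.0904% to 0.115%. The part of these shares in the results below was not tested. The marker sums count mouse genes, while the meal was human, and whether reads of human RNA were removed before counting is not stated in the labels or notes.

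In unfed cells the complexes differed in level. Levels between genes were compared as CPM per kilobase of the longest principal transcript of GENCODE M21, and gene coordinates are those of GRCm38 in the same annotation. The median over members above 1 CPM per kilobase was 64.3 ± 2.68 for complex I (SD of 3 libraries), 71.9 ± 2.95 for complex II, 114 ± 3.40 for complex III, 131 ± 4.26 for complex IV and 126 ± 4.91 for complex V. Complexes I and II lay below III to V. The libraries of complex I (61.9 to 67.2) lay just below those of complex II (68.7 to 74.6), whose median rests on 4 genes, and complexes IV and V were apart by about their SD. The median of complex I was 56.7 ± 2.74 in early-fed and 63.5 ± 1.75 in late-fed cells, and that of complex V 112.4 ± 6.17 and 131.9 ± 6.09. The other medians were 69.6 ± 2.77 and 67.0 ± 2.62 for complex II, 110.7 ± 8.69 and 110.5 ± 5.60 for complex III, and 132.6 ± 6.91 and 130.1 ± 1.73 for complex IV. Atp5b, the catalytic beta subunit of ATP synthase (chr10:128083273-128090391), was the highest member at 1053 ± 2.89 CPM per kilobase, and Atp5a1, its alpha partner, followed at 432 ± 9.77. Sdha, the flavoprotein of complex II, stood at 105 ± 3.44, whereas Cycs, which encodes the mobile carrier cytochrome c (chr6:50562563-50566538), stood at 16.1 ± 1.6. The value of Cycs rests on a transcript length of 3123 bases. Of the short stretches of its transcript sequence, 28.5% also occur in transcripts of 76 other genes, so its level is less certain.

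**Figure D1:**
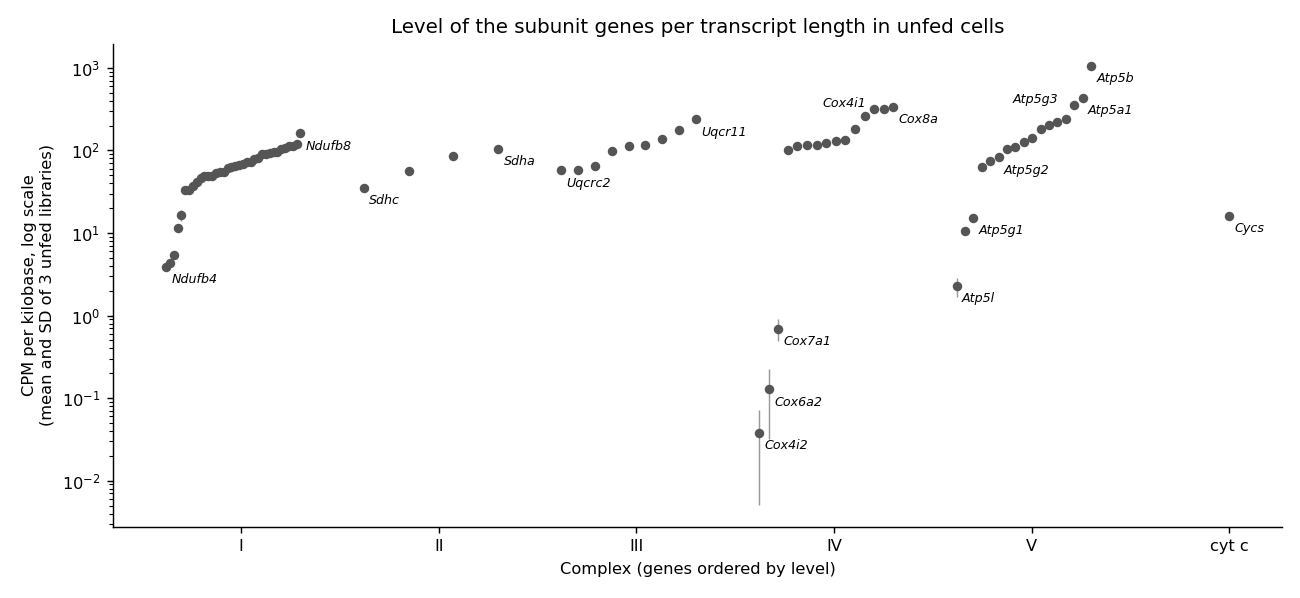
Level of each member with an annotated transcript length in unfed cells, as CPM per kilobase on a log scale (mean and SD of 3 libraries), with genes ordered by level within each complex. Atp5b is the highest at 1053, and the 3 tissue-restricted genes of complex IV (Cox7a1, Cox6a2, Cox4i2) lie below 1.

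Subunits with tissue-restricted forms were expressed as their ubiquitous forms. Cox4i1 stood at 322 ± 11.5 CPM per kilobase and Cox4i2, its form in lung, at 0.0383 ± 0.0332. Cox6a1 stood at 259 ± 22 and the muscle form Cox6a2 at 0.128 ± 0.0959. Cox7a2 stood at 117 ± 3.81, and the muscle form Cox7a1 (chr7:30184144-30186078) at 0.695 ± 0.207. The other low members were partly genes that are hard to count. Atp5l, a membrane subunit of ATP synthase, held only 554 counts, and 84.8% of its 50-base windows also occurred in transcripts of 14 other genes. In all, 18 members shared over 20% of such windows with other genes, and 30 overlapped an exon of another gene, so their counts are less certain.

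The c-ring of ATP synthase, the rotor that protons turn, is encoded by 3 genes whose mature proteins are the same. Their messages can still be told apart, and they are shown because 1 of them, Atp5g1, was called below and the others were not. Over the codons of the mature subunit, Atp5g1 was identical to Atp5g3 at 80.0% of bases and Atp5g2 at 78.7%. The last 90 coding bases (GRCm38, GENCODE M21) are written 5′ to 3′, with bases that differ from Atp5g3 in capitals. Of these 90 bases, 17 differ in Atp5g1 and 23 in Atp5g2.
Atp5g3, chr2:73908596-73908685, minus strand: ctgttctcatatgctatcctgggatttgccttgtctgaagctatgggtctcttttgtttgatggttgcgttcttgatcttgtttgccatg
Atp5g1, chr11:96073107-96073196, minus strand: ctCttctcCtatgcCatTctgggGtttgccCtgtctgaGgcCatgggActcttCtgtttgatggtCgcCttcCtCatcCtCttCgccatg
Atp5g2, chr15:102663017-102663106, minus strand: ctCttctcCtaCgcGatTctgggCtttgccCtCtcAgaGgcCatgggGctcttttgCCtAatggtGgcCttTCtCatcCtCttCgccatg
In unfed cells Atp5g3 stood at 354 ± 4.21 and Atp5g2 at 82.4 ± 6.22 CPM per kilobase. The value of Atp5g1 depended on the transcript chosen, with 15.1 ± 0.387 for its longest principal transcript (4715 bases) and 119.8 for its shortest (596 bases). Both values lie below that of Atp5g3, while the order of Atp5g1 and Atp5g2 could not be settled.

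The comparison matched in time, late-fed cells against unfed 24 h, asks how cells that had taken up neutrophils differed a day later. Few subunit genes were called. Ndufv3, Ndufs5, Ndufs1 and Ndufa6 of complex I, Uqcr11 of complex III and Cox6c of complex IV were higher, and Atp5g1, Cyc1 and Sdhd were lower, with levels between 0.830 and 1.20 times the unfed ones. These 9 of 80 members (11.2%) were called by the quasi-likelihood test of edgeR at an adjusted p under 0.05, where 30.8% of all 13568 genes tested were called (14.9% higher, 15.9% lower). The median log2 fold change of the members was 0.02, with a range of −0.27 to 0.32, and that of all genes was 0.0. The late-fed libraries were also those with the higher mitochondrial and ribosomal shares given above, whose part in these calls was not tested. Changes given below as a rise or fall by a value are log2 fold changes with their standard error (SE).

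Ndufv3 encodes an accessory subunit at the NADH-binding end of complex I (chr17:31520115-31531331). Its level was 55.4, 49.0 and 52.2 CPM in the unfed and 61.6, 62.9 and 59.1 CPM in the late-fed libraries. Each late-fed library lay above each unfed one, with a fitted log2 ratio of 0.23 (SE 0.0516, edgeR adjusted p = 0.00367). Ndufs1, the largest core subunit with iron-sulfur clusters (chr1:63143596-63176833), had 109, 109 and 109.8 CPM in unfed and 121, 118 and 121 CPM in late-fed libraries. The groups again did not overlap, and the log2 fold change was 0.13 (SE 0.0372, edgeR adjusted p = 0.0128). Ndufs5, another accessory subunit, rose by 0.26 (SE 0.0867, edgeR adjusted p = 0.0302) from 7.88 ± 0.640 to 9.46 ± 0.644 CPM (SD, n = 3 each). Ndufa6, named after its values were seen because the naming rule takes 3 genes per complex, lay at the threshold (log2 0.13, SE 0.0463, edgeR adjusted p = 0.0497), and its call was lost under 11 of 16 alternatives (adjusted p up to 0.176). Ndufv1, the core subunit that binds NADH, had a log2 fold change of −0.08 (adjusted p = 0.352) and was not called by edgeR.

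In complex II, Sdhd, a membrane anchor, fell from 107 ± 4.70 to 95.3 ± 4.09 CPM (SD, n = 3 each; log2 −0.16, SE 0.0498, edgeR adjusted p = 0.0217), and the catalytic Sdha and Sdhb were at 0.03 and −0.01. In complex III, Cyc1, the cytochrome that delivers electrons to cytochrome c (chr15:76343523-76346260), had 145, 157 and 149.7 CPM in unfed and 135, 135 and 132 CPM in late-fed libraries. All 3 late-fed libraries were below all unfed ones (log2 −0.17, SE 0.0470, edgeR adjusted p = 0.0136). Uqcr11, a small structural subunit, rose by 0.18 (SE 0.0563, edgeR adjusted p = 0.0252), from 106 ± 5.31 to 120.1 ± 5.82 CPM. Uqcrfs1, the Rieske iron-sulfur protein, was at −0.10, and Cycs at −0.13 (adjusted p = 0.193, edgeR).

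In complex IV, Cox6c rose, a small nuclear subunit (chr15:35925886-35938246). Its level was 89.8, 80.5 and 84.5 CPM in unfed and 96.8, 93.5 and 93.7 CPM in late-fed libraries, without overlap (log2 0.16, SE 0.0487, edgeR adjusted p = 0.0234). Of the 13 tested members of complex IV, 12 had a positive fold change, with a median of 0.10. In 4 of these 13 the groups did not overlap upward, which held for 21.3% of all genes (43.2% in either direction). Cox6b1 narrowly missed the threshold at 0.14 (adjusted p = 0.0511) and was called under 8 of 16 alternatives, for example by the Wald test of DESeq2. In complex V, Atp5g1 had 72.4, 72.4 and 69.3 CPM in unfed and 59.0, 63.3 and 55.4 CPM in late-fed libraries. All late-fed libraries were lower (log2 −0.27, SE 0.0547, edgeR adjusted p = 0.00189). The other c-ring genes, Atp5g2 at −0.08 (adjusted p = 0.3) and Atp5g3 at −0.09 (adjusted p = 0.131), were not called by edgeR, and whether they differed from Atp5g1 in response was not tested. Of the 17 members of complex V, 11 had negative fold changes, with a median of −0.04.

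The calls of Ndufv3, Ndufs1 and Atp5g1 held under all 16 alternatives in scaling, filter, test and libraries. The call of Cyc1 was lost on leaving out unfed replicate 2 or late-fed replicate 3 (adjusted p up to 0.0617), that of Cox6c without unfed replicate 2 or 3 or late-fed replicate 1 (up to 0.111), and those of Ndufs5, Sdhd and Uqcr11 under 4 single omissions each (up to 0.128). The number of higher members was 14 without unfed replicate 1, 2 without unfed replicate 2 and 3 without unfed replicate 3 or late-fed replicate 2. The number of lower members was 1 without unfed replicate 2 or late-fed replicate 3 and 5 without late-fed replicate 2.

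**Figure D2:**
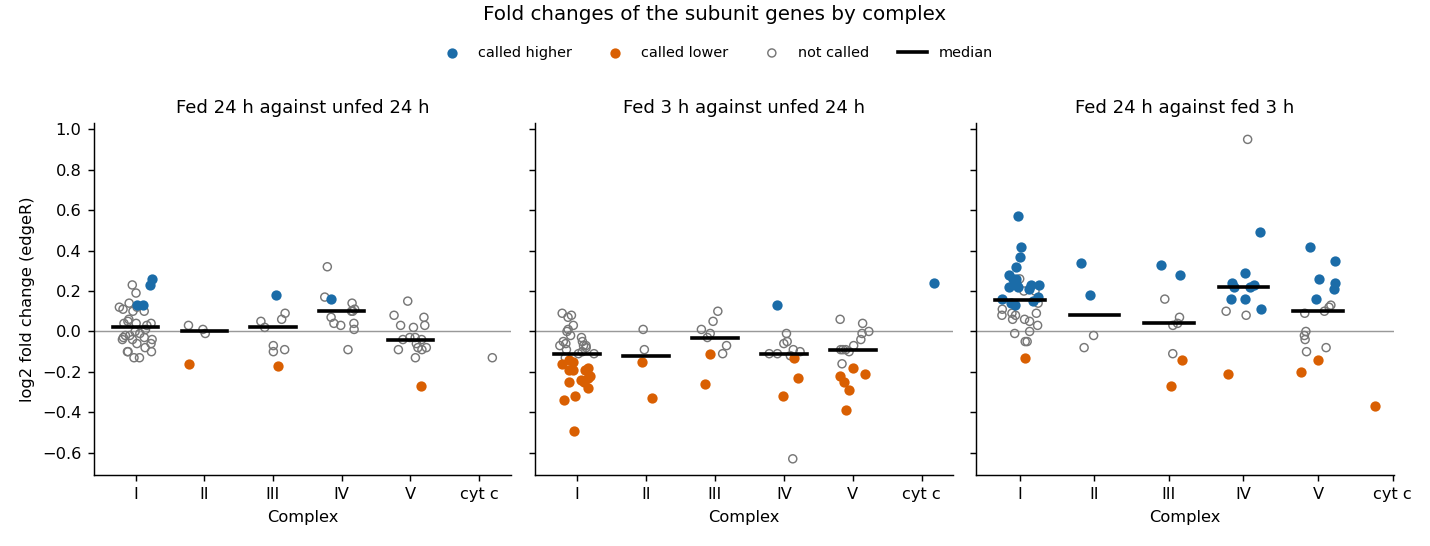
Fitted log2 fold change (vertical axis) of each tested member by complex (horizontal axis; cyt c is Cycs) in the 3 comparisons; filled points were called by edgeR, open points were not, and bars are medians. In early-fed against unfed cells the medians lie between −0.12 and −0.03, and in late-fed cells against early-fed cells between 0.04 and 0.22; the open point at 0.95 is Cox7a1, which had under 1 CPM.

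More members were called at 3 h. Against unfed cells, 29 members were lower, in every complex, and Cycs and Cox5a were higher. In all, 31 of 80 members (38.8%) were called by edgeR, where 50.6% of all genes were called (25.1% higher, 25.5% lower). The members' median log2 fold change was −0.10, against −0.01 for all genes, and 66 of 80 members had negative fold changes. The groups did not overlap downward in 32 members and upward in 4, against 29.1% of all genes in each direction. The largest called fall was that of Ndufb2, a log2 fold change of −0.49, or 0.710 times the unfed level. Of the 10 stromal markers 6 were also lower at 3 h, and their part in the result was not tested. In these bulk libraries less message per cell and fewer cells with the message cannot be told apart.

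Complex I held 16 of the falls among its 36 members (44.4%), where 25.5% of all genes were lower. These 16 comprised 14 of the 29 accessory subunits (48.3%) and 2 of the 7 core subunits (28.6%, near the share of all genes), Ndufv2 and Ndufs8. Ndufb2, an accessory subunit of the membrane arm (chr6:39592574-39603382), had 19.3, 19.1 and 19.0 CPM in unfed and 12.6, 14.1 and 14.1 CPM in early-fed libraries. The early-fed libraries all lay lower (log2 −0.49, SE 0.0609, edgeR adjusted p = 7.13e-06). Ndufb2 overlaps exons of Braf on the opposite strand and of a predicted gene on the same strand, so its count is less certain. For Ndufv3 the 3 early-fed libraries had 43.0, 40.8 and 40.1 CPM, all below the unfed values given above (log2 −0.34, SE 0.0526, edgeR adjusted p = 7.12e-05). Ndufb8, another membrane-arm subunit, fell from 109 ± 6.06 to 87.6 ± 6.48 CPM (log2 ratio −0.32, SE 0.0556, edgeR adjusted p = 0.000198). The core genes Ndufv1 and Ndufs1 had log2 fold changes of −0.07 and 0.08 and were not called.

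In complex II, 2 of 4 genes fell, where 25.5% of all genes were lower. Sdhc, a membrane anchor (chr1:171127165-171150603), had 118, 107 and 106 CPM in unfed and 89.0, 83.8 and 90.9 CPM in early-fed libraries. The groups did not overlap (log2 −0.33, SE 0.0506, edgeR adjusted p = 6.07e-05). Sdha fell from 304 ± 9.98 to 275 ± 5.09 CPM (log2 ratio −0.15, SE 0.0427, edgeR adjusted p = 0.00993), while Sdhb, the iron-sulfur subunit, stood at 65.1 ± 2.38 and 65.7 ± 1.72 CPM. In complex III, 2 of 9 genes fell (22.2%, against 25.5% of all genes). They were Uqcrh, the acidic hinge protein (log2 −0.26, SE 0.0668, edgeR adjusted p = 0.00386), and Uqcrc2, a core protein (log2 −0.11, SE 0.0412, edgeR adjusted p = 0.0361). The call of Uqcrc2 ended under 7 of 16 alternatives (adjusted p up to 0.130). The redox subunits Cyc1 and Uqcrfs1 were at 0.10 and 0.01 and were not called.

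In complex IV, 3 of 13 tested genes fell and Cox5a rose, where 25.5% of all genes were lower and 25.1% higher. Ndufa4 (chr6:11900292-11907497) had 214, 175 and 192 CPM in unfed and 144, 165 and 156 CPM in early-fed libraries. The highest early-fed library remained below the lowest unfed one (log2 −0.32, SE 0.0666, edgeR adjusted p = 0.000904). Cox7a2l, which joins complexes III and IV into supercomplexes, fell by 0.23 (SE 0.0457, edgeR adjusted p = 0.000529), and Cox6c fell by 0.13 (SE 0.0491, edgeR adjusted p = 0.035). The call of Cox6c was lost under 5 of 16 alternatives (adjusted p up to 0.175). Cox5a, a subunit at the matrix side of the complex (chr9:57521274-57532426), had 86.0, 88.8 and 81.5 CPM in unfed and 89.3, 91.6 and 99.1 CPM in early-fed libraries. Every early-fed library was higher, but the call (log2 0.13, SE 0.0488, edgeR adjusted p = 0.0392) was lost under 10 of 16 alternatives (adjusted p up to 0.196), and 32% of its 50-base windows are shared with other genes. Cox4i1 was at −0.11 and was not called.

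In complex V, 6 of 17 genes fell (35.3%, against 25.5% of all genes). Atp5e, the epsilon subunit of the F1 head (chr2:174461072-174464105), had 63.3, 56.6 and 56.6 CPM in unfed and 37.2, 47.8 and 49.6 CPM in early-fed libraries. All early-fed libraries were lower, replicate 1 the most (log2 −0.39, SE 0.0848, edgeR adjusted p = 0.00124). Atp5h and Atp5o of the peripheral stalk, which holds the head still, fell, with log2 fold changes of −0.29 (SE 0.0684, edgeR adjusted p = 0.00256) and −0.25 (SE 0.0462, edgeR adjusted p = 0.000312). Both share over 20% of their 50-base windows with other genes (36.9% and 45.6%). The catalytic genes Atp5a1 and Atp5b were at −0.09 and 0.06, and the c-ring genes Atp5g1, Atp5g2 and Atp5g3 at −0.07, −0.09 and 0.00, none of them called.

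Cycs ran the other way. Its level was 46.2, 55.9 and 49.0 CPM in unfed and 58.2, 56.7 and 63.7 CPM in early-fed libraries. The lowest early-fed library was above the highest unfed one (log2 0.24, SE 0.0723, edgeR adjusted p = 0.0114). The call was lost without unfed replicate 1 or early-fed replicate 3 (adjusted p up to 0.0586), and 28.5% of its 50-base windows occur in transcripts of other genes, 76 in number.

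**Figure D3:**
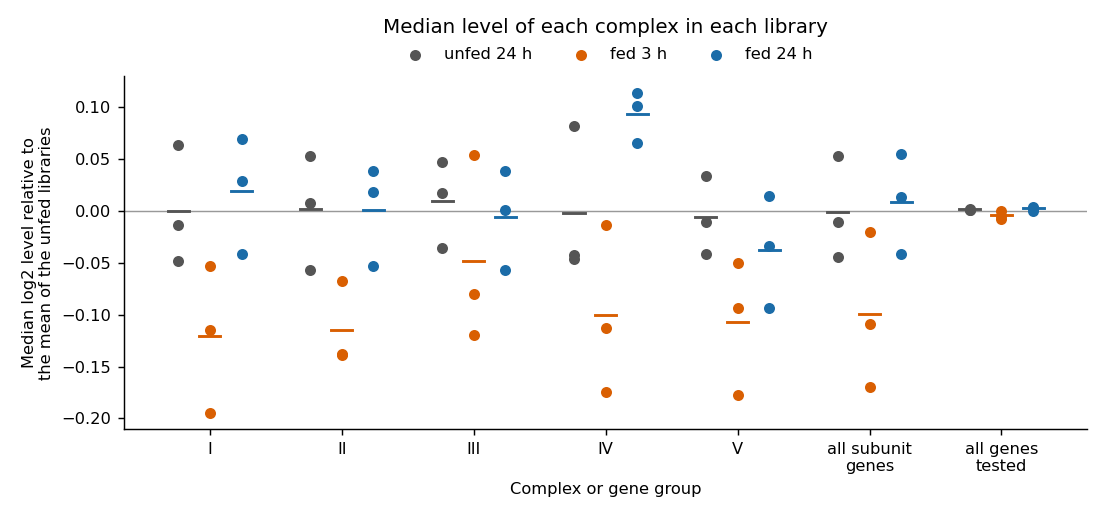
Median over the tested members of each complex of the log2 level relative to the mean of the unfed libraries, 1 point per library, with a bar for the group mean. Over all 80 members the early-fed libraries are at −0.17, −0.11 and −0.02 and the unfed ones at 0.05, −0.01 and −0.04, while the medians over all genes tested stay within 0.01 of 0.

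The 3 early-fed libraries were not alike. Over all 80 members their median levels relative to the unfed mean were −0.17, −0.11 and −0.02 (log2) for replicates 1, 2 and 3, against 0.05, −0.01 and −0.04 in the unfed libraries. Replicate 3, the library that stood apart above, thus lay within the unfed range. Without it, 39 members were lower and the calls of Cycs and Cox5a were lost. The number of falls was 45 with total counts in place of TMM scaling, which moved the median of all genes to −0.05, and ran from 20 to 39 when single libraries were left out. Among the 51 tested members that overlap no other gene 16 fell, and among the 62 with at most 20% shared windows 23 fell.

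The subunit messages are short, with a median of 870 bases against 3041 for the tested genes with a length. Among all genes, 31.8% of the 655 with transcripts under 1000 bases fell at 3 h and 11% rose, while of the 11229 longer ones 27.2% fell and 28.1% rose. Among the members, 17 of 45 short and 12 of 35 longer ones fell. Median log2 fold changes at 3 h were −0.10 in short genes and 0.00 in longer ones, and −0.10 and −0.09 in short and longer members. Between the fed groups, 38.9% of the short genes were higher at 24 h and 18.0% lower (median 0.10). Of the longer genes 32.5% were higher and 33.1% lower (median −0.01). Of the 45 short members 25 were higher and 2 lower (median 0.20), and of the 35 longer ones 12 and 5 (median 0.06). Across the 80 members, Spearman's rho of length with the fold change was 0.18 at 3 h and −0.43 at 24 h against unfed, and −0.39 between the fed groups. The same rho over 11884 genes was 0.10, −0.03 and −0.10. These correlations are across genes of the same libraries, which are not independent, and the part of transcript length in the results was not tested.

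Late-fed cells were also compared with early-fed cells, both sorted for uptake. This comparison shares its libraries with the 2 above. Most called members were higher at 24 h, in every complex, while Cycs, Cyc1, Uqcrc1, Cox5a, Atp5b, Atp5g1 and Ndufs7 were lower. Of 80 members 44 (55.0%) were called by edgeR, 37 of them higher, where 60.9% of all genes were called (30.8% higher, 30.2% lower). The median log2 fold change was 0.14 against 0.0 for all genes, and 62 members had positive fold changes. In 42 members the groups did not overlap upward and in 8 downward, which held for 33.3% and 32.6% of all genes. Complex IV had the largest median, 0.22 (9 of 13 higher, 1 lower), followed by complex I with 0.15 (18 of 36 higher, 1 lower), complex V with 0.10 (6 of 17 higher, 2 lower), complex II with 0.08 (2 of 4 higher) and complex III with 0.04 (2 of 9 higher, 2 lower). Differences between the complexes were not tested.

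Ndufv3 showed the largest called rise, from 43.0, 40.8 and 40.1 CPM in early-fed to 61.6, 62.9 and 59.1 CPM in late-fed libraries. The groups were far apart relative to their spread (log2 0.57, SE 0.0522, edgeR adjusted p = 1.58e-07), a 1.48-fold difference. Ndufa13, which sits where the arms of complex I meet and is also known as a cell death regulator, rose by 0.42 (SE 0.0607, edgeR adjusted p = 1.92e-05), and Ndufb2 by 0.37 (SE 0.0607, edgeR adjusted p = 7.52e-05). Ndufs7, a core subunit that passes electrons to ubiquinone, was the only called fall of complex I (log2 −0.13, SE 0.0466, edgeR adjusted p = 0.0212), a call lost under 4 of 16 alternatives (adjusted p up to 0.117). The core genes Ndufv1 and Ndufs1 were at 0.00 and 0.06 and were not called.

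Sdhc rose by 0.34 (SE 0.0504, edgeR adjusted p = 2.26e-05) and Sdha by 0.18 (SE 0.0426, edgeR adjusted p = 0.00193), while Sdhb was at −0.02 and Sdhd at −0.08. In complex III, Uqcrh rose by 0.33 (SE 0.0666, edgeR adjusted p = 0.000512) and Uqcr11 by 0.28 (SE 0.0564, edgeR adjusted p = 0.000403). Cyc1 had 158, 154 and 172 CPM in early-fed and 135, 135 and 132 CPM in late-fed libraries. The lowest early-fed value was above the highest late-fed value (log2 −0.27, SE 0.0470, edgeR adjusted p = 0.000125). Uqcrc1, a core protein, fell by 0.14 (SE 0.0448, edgeR adjusted p = 0.0153), a call lost under 4 alternatives (adjusted p up to 0.0930). Cycs had 58.2, 56.7 and 63.7 CPM in early-fed and 43.4, 50.4 and 44.3 CPM in late-fed libraries. Its groups did not overlap either (log2 −0.37, SE 0.0722, edgeR adjusted p = 0.000345), and the calls of Cyc1 and Cycs held under all 16 alternatives.

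Ndufa4 rose the most in complex IV, from 144, 165 and 156 to 228, 207 and 216 CPM. The groups did not overlap (log2 0.49, SE 0.0665, edgeR adjusted p = 1.14e-05). Cox6c rose by 0.29 (SE 0.0488, edgeR adjusted p = 9.45e-05), Cox7a2l by 0.24 (SE 0.0456, edgeR adjusted p = 0.000273) and Cox4i1 by 0.22 (SE 0.0504, edgeR adjusted p = 0.00151). Of the other ubiquitous forms, Cox6b1 (0.23), Cox7b (0.22), Cox6a1 (0.16) and Cox8a (0.16) were called higher, the last 2 not under every alternative (adjusted p up to 0.111 and 0.163). Cox5a had 89.3, 91.6 and 99.1 CPM in early-fed and 78.5, 82.2 and 80.6 CPM in late-fed libraries. All late-fed libraries were lower (log2 −0.21, SE 0.0487, edgeR adjusted p = 0.00124). Cox7a1, at under 1 CPM in every library, had a fold change of 0.95 with an SE of 0.398 and was not called, although it passed under 4 of 15 alternatives.

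In complex V, Atp5e rose by 0.42 (SE 0.0844, edgeR adjusted p = 0.000488), Atp5j2, a membrane subunit, by 0.35 (SE 0.0580, edgeR adjusted p = 7e-05), and Atp5h by 0.26 (SE 0.0682, edgeR adjusted p = 0.0039). Atp5b had 2089, 2058 and 2163 CPM in early-fed and 1925, 1934 and 1857 CPM in late-fed libraries. The late-fed libraries were all lower (log2 −0.14, SE 0.0415, edgeR adjusted p = 0.00728), while its partner Atp5a1 was at −0.04. Atp5g1 fell from 68.0 ± 3.81 to 59.2 ± 3.94 CPM (log2 ratio −0.20, SE 0.0547, edgeR adjusted p = 0.00486), with Atp5g2 at 0.00 and Atp5g3 at −0.10. Without early-fed replicate 3, 42 members were higher and 5 lower between the fed groups.

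**Figure D4:**
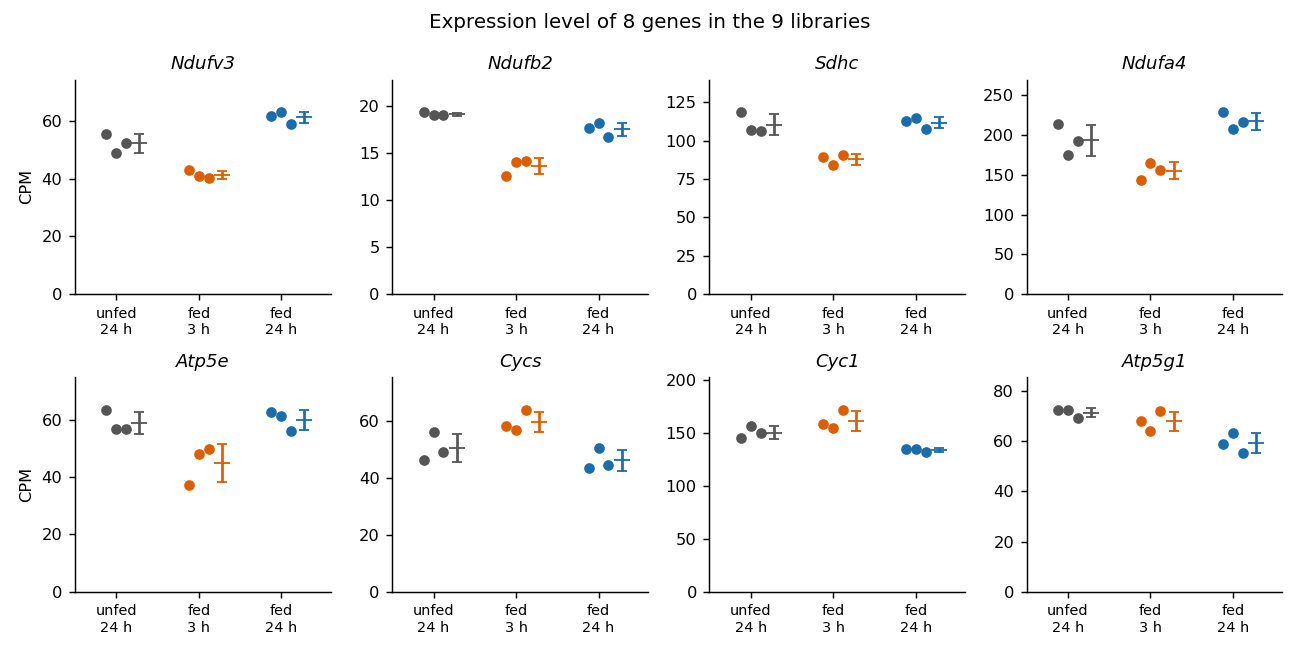
Level in CPM (vertical axis, from 0) of 8 members in the 3 unfed, 3 early-fed and 3 late-fed libraries, with the mean and SD beside the points. In the upper row and for Atp5e the early-fed libraries are the lowest group (13.6 CPM for Ndufb2 against 19.1 unfed), for Cycs they are the highest (59.5 CPM), and Cyc1 and Atp5g1 are lowest in late-fed cells.

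Subunits encoded in mitochondrial DNA complete complexes I, III, IV and V. Of the 13 such messages 7 had counts to test and the other 6 had 0 or 1 count in all. Among these 6 were mt-Atp6 and mt-Atp8, so no mitochondrially encoded subunit of complex V was measured. Why the 6 had almost no counts was not tested, and it does not show that these messages were absent from the cells. In late-fed cells, 6 of 7 rose against unfed cells, with a median log2 fold change of 0.35, and 6 of 7 rose against early-fed cells, with a median of 0.43. Of all genes 14.9% and 30.8% were higher in these comparisons. The ribosomal share was higher in late-fed than in unfed libraries as well, and its part was not tested. Without early-fed replicate 3, the library with the lowest mitochondrial share, 5 of 7 rose between the fed groups. For mt-Co1, a catalytic subunit of complex IV, the levels were 5900.0 ± 362 CPM in unfed, 5194 ± 950.4 in early-fed and 7333 ± 1056 in late-fed libraries (SD, n = 3 each). In early-fed against unfed cells none of the 7 was called by edgeR or by DESeq2, 0 had an unadjusted p under 0.05, and the median was −0.06. By edgeR, 1 was higher without early-fed replicate 3, 1 was lower without early-fed replicate 1, and with no filter on low counts 1 was higher and 2 lower.

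Assembly factors, which insert cofactors and join the subunits, and enzymes of ubiquinone synthesis were taken as a further list of 70 genes, of which 68 were tested. In late-fed against unfed cells, 5 were higher and 11 lower (23.5% called, against 30.8% of all genes), with a median log2 fold change of −0.04. Coq10a, a ubiquinone-binding protein (0.33), Cmc1 (0.32) and Cox14 (0.23), both for early assembly of complex IV, rose the most among the called genes of this list. Coa7 of complex IV (−0.48) and Ndufaf4 (−0.36) and Ndufaf6 (−0.35) of complex I fell the most. The calls of Cmc1 and Ndufaf6 were lost under 4 and 6 alternatives (adjusted p up to 0.127 and 0.146). The number higher was 3 without unfed replicate 2 or 3 or late-fed replicate 3.

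In early-fed against unfed cells, 15 assembly genes were higher and 22 lower, with a median of −0.09. These 54.4% were near the 50.6% of all genes called. Without early-fed replicate 3 the numbers were 11 and 22. Coq10b (0.64), Ndufaf4 (0.47) and Sco2, a copper chaperone (0.44), rose the most, and Ndufaf3 (−0.51), Fmc1 of complex V (−0.47) and Cox20 (−0.43) fell the most. With total counts in place of TMM the numbers were 9 and 27, and 14 were lower without early-fed replicate 1. Between the fed groups, 25 were higher at 24 h and 21 lower (67.6% called, against 60.9% of all genes; 26 and 20 without early-fed replicate 3), led by Coq8a (0.68), Ndufaf3 (0.59) and Coq9 (0.57) and by Ndufaf4 (−0.83), Coq10b (−0.82) and Tmem186 (−0.73). Ndufaf4 had 16.2, 17.4 and 17.3 CPM in unfed, 24.9, 22.5 and 22.9 in early-fed and 12.7, 12.4 and 14.4 in late-fed libraries. All 3 groups were apart from each other without overlap, early-fed the highest.

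Regulators known to act on respiratory chain genes were mostly higher at 3 h. The list held 13 transcription factors and coactivators, of which 12 were tested. In early-fed against unfed cells, 8 were higher: Nrf1 (0.33), Gabpa (0.14), Gabpb1 (0.13), Yy1 (0.17), the oestrogen-related receptor Esrra (0.24), the coactivators Ppargc1b (1.49) and Pprc1 (0.44), and Nfya (0.32). Nfyb, which joins Nfya in the CCAAT-binding factor, was lower (−0.24). Of all genes 25.1% were higher and 25.5% lower, and without early-fed replicate 3 the regulators numbered 7 higher and 1 lower. Pprc1 had 78.7, 91.6 and 97.0 CPM in unfed, 128, 117 and 118 in early-fed and 54.7, 59.0 and 68.4 in late-fed libraries. Its early-fed libraries were the highest and its late-fed libraries the lowest, with no overlap between any groups. For Nrf1 the unfed libraries had 45.5, 46.0 and 45.3 CPM, the early-fed ones 57.2, 56.1 and 58.2 and the late-fed ones 39.2, 40.4 and 38.8. The groups ranked as for Pprc1, again without overlap.

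In late-fed against unfed cells, 5 regulators were lower: Nrf1 (−0.21), Yy1 (−0.24), Sp1 (−0.24), Esrra (−0.18) and Pprc1 (−0.55), where 15.9% of all genes were lower. Between the fed groups 9 were lower at 24 h, from −0.16 for Gabpa to −1.63 for Ppargc1b, and Nfyb was higher (0.15), against 30.2% and 30.8% of all genes. Without early-fed replicate 3 these numbers were again 9 and 1. The median log2 fold changes of the regulators were 0.15 at 3 h and −0.14 at 24 h against unfed, and −0.34 between the fed groups, with those of the subunits at −0.10, 0.02 and 0.14. The difference between the lists was not tested. The calls of Gabpa and Gabpb1 at 3 h were lost under 4 and 7 of 16 alternatives (adjusted p up to 0.0984 and 0.139).

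**Figure D5:**
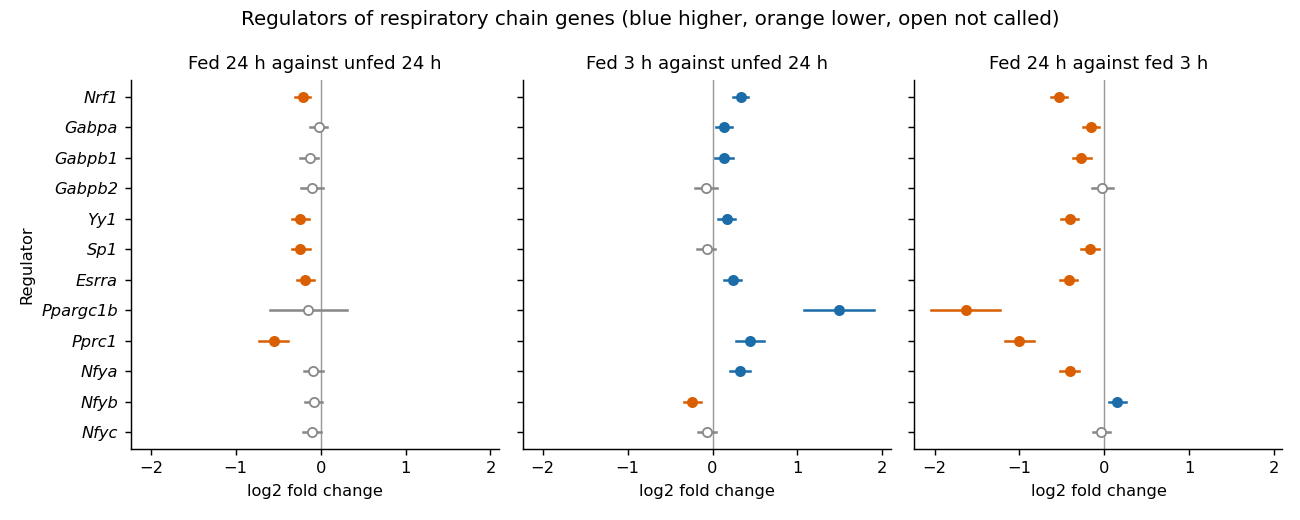
Log2 fold change (horizontal axis, 95% interval of the edgeR fit) of the 12 tested regulators in the 3 comparisons, blue where called higher and orange where called lower. In early-fed cells 8 of 12 are higher and Ppargc1b, at 1.49, is the farthest from 0; between the fed groups 9 are lower.

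Several of these factors bind short sequences near the start of their target genes, so the promoters of the members were searched on both strands. RefSeq windows of 300 bases (GRCm38.p6) were found for 67 members and for 27025 genes, 9911 of them tested. The motif of NRF1, the letters in capitals in the first 5 stretches below, occurred in 5 members (7.46%), against 1.07% of all genes and 2.35% of tested genes. The YY1 motif AAGATGGCG occurred in 7 members (10.4%, against 1.64% and 3.66%), and the ETS motif CCGGAAG, read by GABPA, in 17 (25.4%, against 9.93% and 20.4%). TCAAGGTCA, the motif of the oestrogen-related receptors, occurred in 2 (2.99%, against 0.466% and 0.272%). GGGCGG, the SP1 motif, occurred in 41.8% of members, against 38.2% and 69.0%, and CCAAT in 43.3%, against 41.1% and 43.7%. A match describes letters, not bound protein.

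All 5 members with the NRF1 motif are shown, and of the 7 with the YY1 motif the 3 that fell at 3 h. The 4 members with the YY1 motif that were not called at 3 h are not shown. Any link between these motifs and the changes of Nrf1 and Yy1 was not tested. Each stretch is written 5′ to 3′ along the gene's strand, with up to 10 bases on either side and the motif in capitals. The NRF1 motif reads the same on both strands.
Ndufa11, chr17:56717692-56717721, plus strand: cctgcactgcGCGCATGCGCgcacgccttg
Uqcrc1, chr9:108936668-108936697, plus strand: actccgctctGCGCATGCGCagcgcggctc
Cox6a1, chr5:115349101-115349130, minus strand: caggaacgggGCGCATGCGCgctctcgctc
Atp5g2, chr15:102671070-102671099, minus strand: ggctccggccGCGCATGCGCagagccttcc
Atp5k, chr5:108434430-108434459, minus strand: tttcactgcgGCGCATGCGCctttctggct
Ndufc1, chr3:51408915-51408943, minus strand: cctgcggaacAAGATGGCGccgtccgtag
Ndufs6, chr13:73328433-73328459, minus strand: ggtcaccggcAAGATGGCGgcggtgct
Atp5j2, chr5:145191500-145191528, minus strand: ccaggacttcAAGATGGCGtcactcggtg
Among the 24 members with a window that fell at 3 h, 1 held the NRF1 motif (Atp5k), 6 the ETS motif and 3 the YY1 motif. Among the 41 that were not called, the numbers were 4, 11 and 4. The log2 fold changes at 3 h of the 5 members with the NRF1 motif ran from −0.22 for Atp5k to 0.05 for Uqcrc1, while Nrf1 itself was at 0.33.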

How the data were processed

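RNA of 9 libraries was sequenced. Per the submitters' processing notes, the authors used STAR 2.7.0f, Subread 1.6.4 with featureCounts, MultiQC 1.7 and the builds GRCm38.p6 and GRCh38.p13. The sources used here do not give the role of the human build. The labels describe 2 different library kits, so the strandedness is unknown. The authors deposited 1 table of raw counts per gene symbol. From it, groups were compared in edgeR 4.0.16 by its quasi-likelihood test (R 4.3.3, limma 3.58.1; TMM scaling, default filter on low counts, all 9 libraries in 1 fit). P-values were adjusted by Benjamini and Hochberg over 13568 genes and called under 0.05. CPM are counts relative to the TMM-scaled library size, and ± is the SD of 3 libraries. P-values measure only the spread between these libraries, which may be technical. The members and lists were chosen with earlier results of these data known. Named were, per comparison and complex, up to 3 called members per direction with at least 5 CPM, plus fixed catalytic subunits and isoform families, up to 3 assembly factors per direction and all called regulators. Alternatives were other scalings, the Wald test of DESeq2 1.42.0, other filters, 6 libraries, a replicate block and leaving out each library. Alternatives for the assembly, regulator and mitochondrial lists and for Ndufa6 were chosen after seeing the data. 1 gene of the naming rule is not reported here.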

Additional observations from a re-analysis of the deposited data

Results flagged for a closer look

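3 members had effects of opposite sign against unfed cells, called in both comparisons. The difference between these effects is the comparison of fed 24 h against fed 3 h. Its sign follows from how the genes were picked, so it is no further test. Both effects share the unfed libraries. For Ndufv3 the log2 effect at 24 h minus that at 3 h was 0.57 (0.23 and −0.34). For Cox6c it was 0.29 (0.16 and −0.13). For Ndufa6 it was 0.28 (0.13 and −0.15). The calls of Ndufv3 held under all 16 alternatives in both comparisons with unfed cells. For Cox6c the call at 24 h was lost under 3 of 16 and that at 3 h under 5. For Ndufa6 the call at 24 h, which lay at the threshold, was lost under 11 of 16 and that at 3 h under 1.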

How the results depend on the processing

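Of 2248 values of named genes under single alternatives, 2112 kept their side of the threshold. Of the rest, 93 lost a call and 43 gained one, and 0 values changed sign while called. Genes not called could change sign and still count as kept, such as Ndufv1 between the fed groups (−0.05 to 0.05). Of 741 values of counts and medians, 32 moved. At fed 24 h against unfed, 6 members were higher, and 10 by the Wald test of DESeq2, 10 with no filter, 11 with a stricter filter and 2 to 14 when single libraries were left out, while 3 were lower (1 to 5). At fed 3 h, 2 were higher, and 1 with total counts, no filter, 6 libraries, the replicate block or structural subunits only (0 to 3 with single libraries left out), and 29 were lower, and 45 with total counts. The complex II median between the fed groups was 0.08, and 0.129 with total counts. With single libraries left out, 1426 to 2241 of all genes were lower at fed 24 h against unfed, 3 to 7 assembly genes were higher there and 14 to 22 lower at fed 3 h, where 9 were higher with total counts. Of the mitochondrially encoded genes at fed 3 h, 1 was higher and 2 lower with no filter, and 0 to 1 each with single libraries left out. The causes were not tested, beyond that fewer libraries or other genes entered. Replicate numbers did not pair the samples (correlations of same-numbered libraries −0.163 to 0.058); the replicate block gave 5 higher and 3 lower members at fed 24 h, 1 and 26 at fed 3 h, and 35 and 7 between the fed groups. Cox7a1, with 117 counts in all and under 1 CPM, had an SE of 0.368 to 0.423 on the log2 scale.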
